A study of Mus musculus with 16 samples.

Results

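Synaptic adhesion molecules are membrane proteins that reach across the synaptic cleft and hold the presynaptic and postsynaptic sides together. The 9 genes described here were selected by symbol from the gene table, which has 26625 entries, and each symbol occurred once. They are the neurexins Nrxn2 and Nrxn3, the neuroligins Nlgn1, Nlgn2 and Nlgn3, the leucine-rich repeat protein Lrrtm2, the immunoglobulin-domain proteins Cadm1 and Cadm2, and the intercellular adhesion molecule Icam5. All 9 were among the 18826 entries that passed the filter on low counts and were tested.

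Neurexins sit on the presynaptic membrane and bind several postsynaptic partners, among them the neuroligins and Lrrtm2. Neuroligin 1 is known mainly from excitatory synapses, neuroligin 2 from inhibitory synapses and neuroligin 3 from both kinds. Cadm1 and Cadm2, also called SynCAMs, bind each other across the cleft, and Icam5, or telencephalin, is a dendritic protein of excitatory neurons of the forebrain.

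The tissue was the medial prefrontal cortex (mPFC) of 16 male C57BL/6 mice, 8 to 10 weeks old, in 4 groups. Virus was injected into the mPFC on both sides before conditioning and carried a short hairpin RNA behind a U6 promoter, which is not restricted to a cell type, together with EGFP. The hairpin was a control sequence in 7 mice, of which 3 were Ctrl + Saline and 4 Ctrl + Morphine. In the other 9 it was directed against Kdm7a, a histone demethylase, and 5 of these mice formed the Kdm7a-shRNA + Saline group and 4 the Kdm7a-shRNA + Morphine group. Mice were conditioned to a place over 10 days with morphine at 10 mg/kg alternating with saline, or with saline alone, and the tissue was taken on day 7 of withdrawal. Full-length cDNA was sequenced on nanopores, and 6596991 to 12418112 reads per mouse were counted on genes. Values are given as normalised CPM, that is, reads per 1000000 counted reads after correction with edgeR's TMM factors, and folds as log2 fold changes of the first group over the second. Calls required an adjusted p-value under 0.05 from edgeR's quasi-likelihood test together with a fold change of at least 1.5, and genes meeting both are said to have passed.

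The targeted gene was read first. Kdm7a was 9.42 ± 0.353 normalised CPM (SD, n = 3) in Ctrl + Saline, 7.72 ± 1.13 (n = 4) in Ctrl + Morphine, 5.55 ± 0.571 (n = 5) in Kdm7a-shRNA + Saline and 4.94 ± 1.53 (n = 4) in Kdm7a-shRNA + Morphine mice. It was lower after knockdown under saline (log2 fold change -0.76, adjusted p = 0.0153 from edgeR) and missed the threshold under morphine (-0.67, adjusted p = 0.0506 from edgeR). The call under saline was lost without Ctrl + Saline mouse 3 (adjusted p = 0.0533 from edgeR), and the one under morphine was gained in 6 of 17 alternatives, 3 of them without Kdm7a-shRNA + Morphine mouse 1 or 4 or Ctrl + Morphine mouse 2.

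Markers of other cells moved with the virus, and the tissue is a bulk sample, in which fewer cells of a type and less RNA per cell cannot be told apart. The summed level of 6 microglial markers ranged from 561 to 671 normalised CPM in Ctrl + Saline, 311 to 601 in Ctrl + Morphine, 803 to 2310 in Kdm7a-shRNA + Saline and 556 to 2180 in Kdm7a-shRNA + Morphine mice. Of these markers 5 of 6 passed as higher after knockdown under saline and 3 of 6 under morphine. Of all entries 16.7% and 7.69% passed in these comparisons in either direction. The 5 general neuronal markers, none of them at 0, summed to 2030 to 2540, 1750 to 2760, 1560 to 2590 and 1610 to 2790 in the same order, so the mPFC samples of every group held neuronal RNA. After knockdown under saline all 5 of their estimates were below 0, with a median log2 fold change of -0.22. Under morphine it was 3 of 5, with a median of -0.02, and 0 of 5 passed by edgeR in either comparison. All 6 excitatory markers were also detected in every group, and their sums overlapped among the groups, but single markers moved. Under saline Nrgn rose after knockdown (log2 fold change 1.48, adjusted p = 0.0141 from edgeR), while Camk2a (-0.72) and Neurod6 (-0.73) were called lower by DESeq2 and not by edgeR. That is 1 of 6 by edgeR, 16.7% beside 16.7% of all entries, and 3 of 6 by DESeq2, beside 3358 of all 18826 entries. Under morphine 0 of 6 passed by both tools, and 5 of 6 estimates were below 0, as for Icam5, with a median of -0.34. Of 6 astrocyte markers, Gfap and Aldh1l1 passed as higher after knockdown under saline, which is 33.3% beside 16.7% of all entries. The list was mixed there, with 2 of 6 estimates below 0. Under morphine all 6 estimates were above 0, with 0 passing by edgeR and 2 by DESeq2, which passed 1697 of all 18826 entries.

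Icam5 was the 1 member of 9 that passed in any comparison, and it was lower after Kdm7a knockdown in morphine-treated mice. Its level was 13.2, 11.2 and 11.1 normalised CPM in the Ctrl + Saline mice and 18.6, 24.1, 18.6 and 29.8 in the Ctrl + Morphine mice. In the Kdm7a-shRNA + Saline mice it was 21.8, 11.6, 10.9, 17.2 and 11.0, and in the Kdm7a-shRNA + Morphine mice 6.44, 17.1, 6.36 and 13.0. Every Ctrl + Morphine mouse lay above every Ctrl + Saline mouse and above every Kdm7a-shRNA + Morphine mouse, whereas both Kdm7a-shRNA groups overlapped with Ctrl + Saline and with each other. The group means fell in the order Ctrl + Morphine (22.8 ± 5.38, SD, n = 4), Kdm7a-shRNA + Saline (14.5 ± 4.87, n = 5), Ctrl + Saline (11.9 ± 1.18, n = 3) and Kdm7a-shRNA + Morphine (10.7 ± 5.29, n = 4), and the mice of the last 3 groups overlapped. These levels rest on 42 to 279 reads per mouse, and the fewest reads were those of a Kdm7a-shRNA + Morphine mouse. The summed level of 6 striatal neuron markers separated the same groups. It was 117 to 146 normalised CPM in Ctrl + Morphine, 68.6 to 90.8 in Ctrl + Saline and 73.9 to 108 in Kdm7a-shRNA + Morphine mice. By the mean of their log2 levels these groups overlapped. For morphine in Ctrl mice 3 of 6 estimates were below 0, and 4 of 6 for knockdown under morphine. The part of such cells in the Icam5 values was not tested.

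With morphine and the Kdm7a hairpin, Icam5 was at 0.47 times its level with morphine and the control hairpin (log2 fold change -1.09, 95% interval -1.71 to -0.47, adjusted p = 0.0287 from edgeR). Across all tested entries 7.69% passed in this comparison, and the groups of 13.9% did not overlap. The share that passed was 3.03% to 4.99% when Kdm7a-shRNA + Morphine mouse 1 or 3 or Ctrl + Morphine mouse 1, 3 or 4 was left out, and 3.09% with known genes only. Without Kdm7a-shRNA + Morphine mouse 2 or 4 or Ctrl + Morphine mouse 2 it was 6.86%, 11% and 8.67%, in that order. The call rested on few mice. It was lost without Ctrl + Morphine mouse 4 (-0.93, adjusted p = 0.104 from edgeR), without Kdm7a-shRNA + Morphine mouse 1 (-0.92, adjusted p = 0.0853) and without Kdm7a-shRNA + Morphine mouse 3 (-0.89, adjusted p = 0.0991), and it held in the other 5 of 8 fits that left out a mouse. It was also lost when the 2 groups were fitted alone (-1.10, adjusted p = 0.0624 from edgeR), where 4.11% of all entries passed. Mouse 3 of the Kdm7a-shRNA + Morphine group had the highest microglial marker sum of its group, 2180 normalised CPM, and the part of these cells in the Icam5 value was not tested.

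Morphine alone gave an estimate of the opposite sign. Icam5 was 1.92 times as high in Ctrl + Morphine as in Ctrl + Saline mice (log2 fold change 0.94, 95% interval 0.27 to 1.62, adjusted p = 0.245 from edgeR), which did not pass. The same 4 Ctrl + Morphine mice enter each of these contrasts, and Icam5 was chosen with earlier results of these mice known, so neither is independent of the other or of that choice. Under saline, knockdown gave 0.29 (95% interval -0.36 to 0.94, adjusted p = 0.539 from edgeR). The interaction, which asks whether knockdown acted differently with morphine than with saline, was -1.38 (95% interval -2.28 to -0.48, adjusted p = 0.218 from edgeR) and did not pass. Among the knockdown mice, morphine gave -0.44 (95% interval -1.04 to 0.16, adjusted p = 0.778 from edgeR).

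Icam5 is a gene of excitatory neurons, so its level was also set against the mean log2 level of 6 excitatory markers in the same mouse, a difference on which the scaling of libraries has almost no bearing. This difference was -3.21 ± 0.21 (SD, n = 3) in Ctrl + Saline, -2.53 ± 0.215 (n = 4) in Ctrl + Morphine, -2.86 ± 0.208 (n = 5) in Kdm7a-shRNA + Saline and -3.44 ± 0.575 (n = 4) in Kdm7a-shRNA + Morphine mice. The groups kept the order that Icam5 alone had, with Ctrl + Morphine highest and Kdm7a-shRNA + Morphine lowest. Ctrl + Morphine (-2.68 to -2.22) stayed clear of Ctrl + Saline (-3.41 to -2.99), but its lowest mouse was just under the highest Kdm7a-shRNA + Morphine mouse, at -2.67. Set against the mean of the 5 general neuronal markers instead, Icam5 gave the same order of group means, -3.89, -4.34, -4.85 and -5.05. On that scale the Kdm7a-shRNA + Saline mice (-4.53 to -3.80) lay above all Ctrl + Saline mice (-5.08 to -4.59), whereas against the excitatory markers these groups overlapped. Neither difference carries a test.

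**Figure D1:**
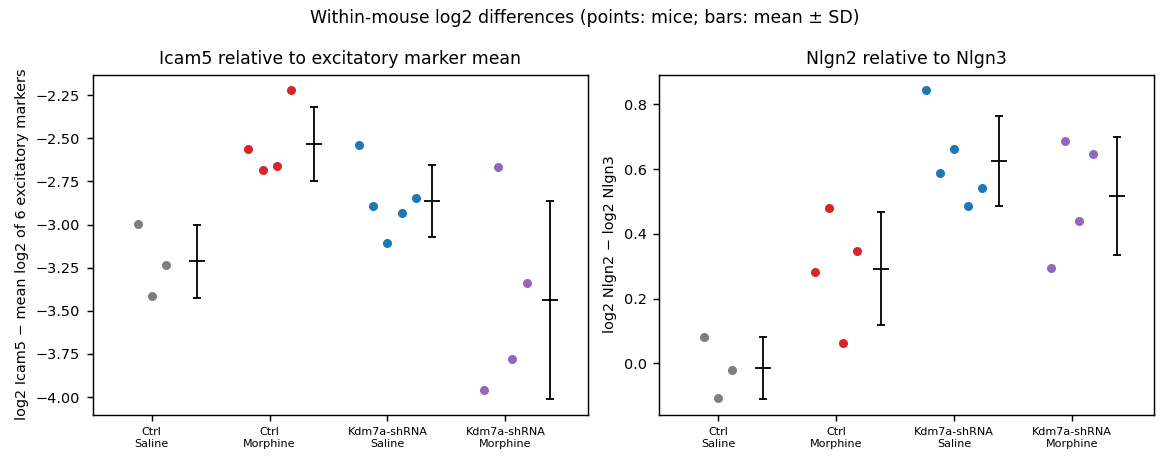
Left, log2 Icam5 minus the mean log2 level of 6 excitatory neuron markers, and right, log2 Nlgn2 minus log2 Nlgn3, on the vertical axes for each mouse (points) of the 4 groups, with group mean ± SD (bars). On the left Ctrl + Morphine has the highest mean, -2.53, and on the right the 3 Ctrl + Saline mice, at -0.11 to 0.08, lie below the 5 Kdm7a-shRNA + Saline mice, at 0.48 to 0.84.

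The gene lies on chromosome 9 at chr9:21032073-21039036 on the plus strand (GRCm38, GENCODE M21), with 1 coding transcript of 2947 bases. Exons of Gm26592 and Gm47079 overlap it on the minus strand, and since no source states that reads were counted by strand, reads from them cannot be told apart from Icam5 reads. Among 7815 annotated genes of at least 10 normalised CPM on average, the genes whose log2 level was most like Icam5 over the 16 mice were Ly6h (Pearson r = 0.92), Rprml (0.91) and Mbd3 (0.91). With group means removed the values were 0.89, 0.82 and 0.82, and these mice share the libraries in which all genes were read.

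The known binding partners of Icam5 were read next. Itgal and Itgb2 encode the leukocyte integrin that binds it, Itgb1 and Itga5 encode neuronal integrin chains, Vtn encodes vitronectin, and Icam1, Icam2 and Icam4 are its relatives. Of these 8 genes, Icam1 (log2 fold change 1.47, adjusted p = 0.0487 from edgeR) and Itgb2 (1.87, adjusted p = 0.0207) rose after knockdown under saline, where 16.7% of all entries passed. None of the 8 passed under morphine by edgeR, beside 7.69% of all entries, with 4 under an unadjusted 0.05, beside 25.5%. By DESeq2 1, Vtn, passed, beside 1697 of all 18826 entries. All 8 estimates were above 0, with a median log2 fold change of 0.91 against -0.00 for all tested entries. Itgb2 and Icam1 are expressed by microglia and endothelium. The sum of 4 endothelial markers was 35.6 to 66.7 normalised CPM in Ctrl + Saline and 65.5 to 96.2 in Kdm7a-shRNA + Saline mice. With morphine it was 51.4 to 67.2 in Ctrl and 50.9 to 99.8 in Kdm7a-shRNA mice. As higher, 3 of the 4 passed after knockdown under saline and 1 under morphine, beside 16.7% and 7.69% of all entries. In each comparison 1 of the 4 estimates was below 0. The part of microglia and endothelium was not tested. Among 5 tested genes for proteases that shed synaptic adhesion proteins, Mmp2, which can cleave Icam5, rose after knockdown under saline (1.40, adjusted p = 0.0486 from edgeR), again beside 16.7% of all entries. Mmp2 and Icam1 stood at the threshold and lost their calls under 12 and 11 of 17 alternatives, while Itgb2 lost its call under 3, each of which left out a Ctrl + Saline mouse.

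**Figure D2:**
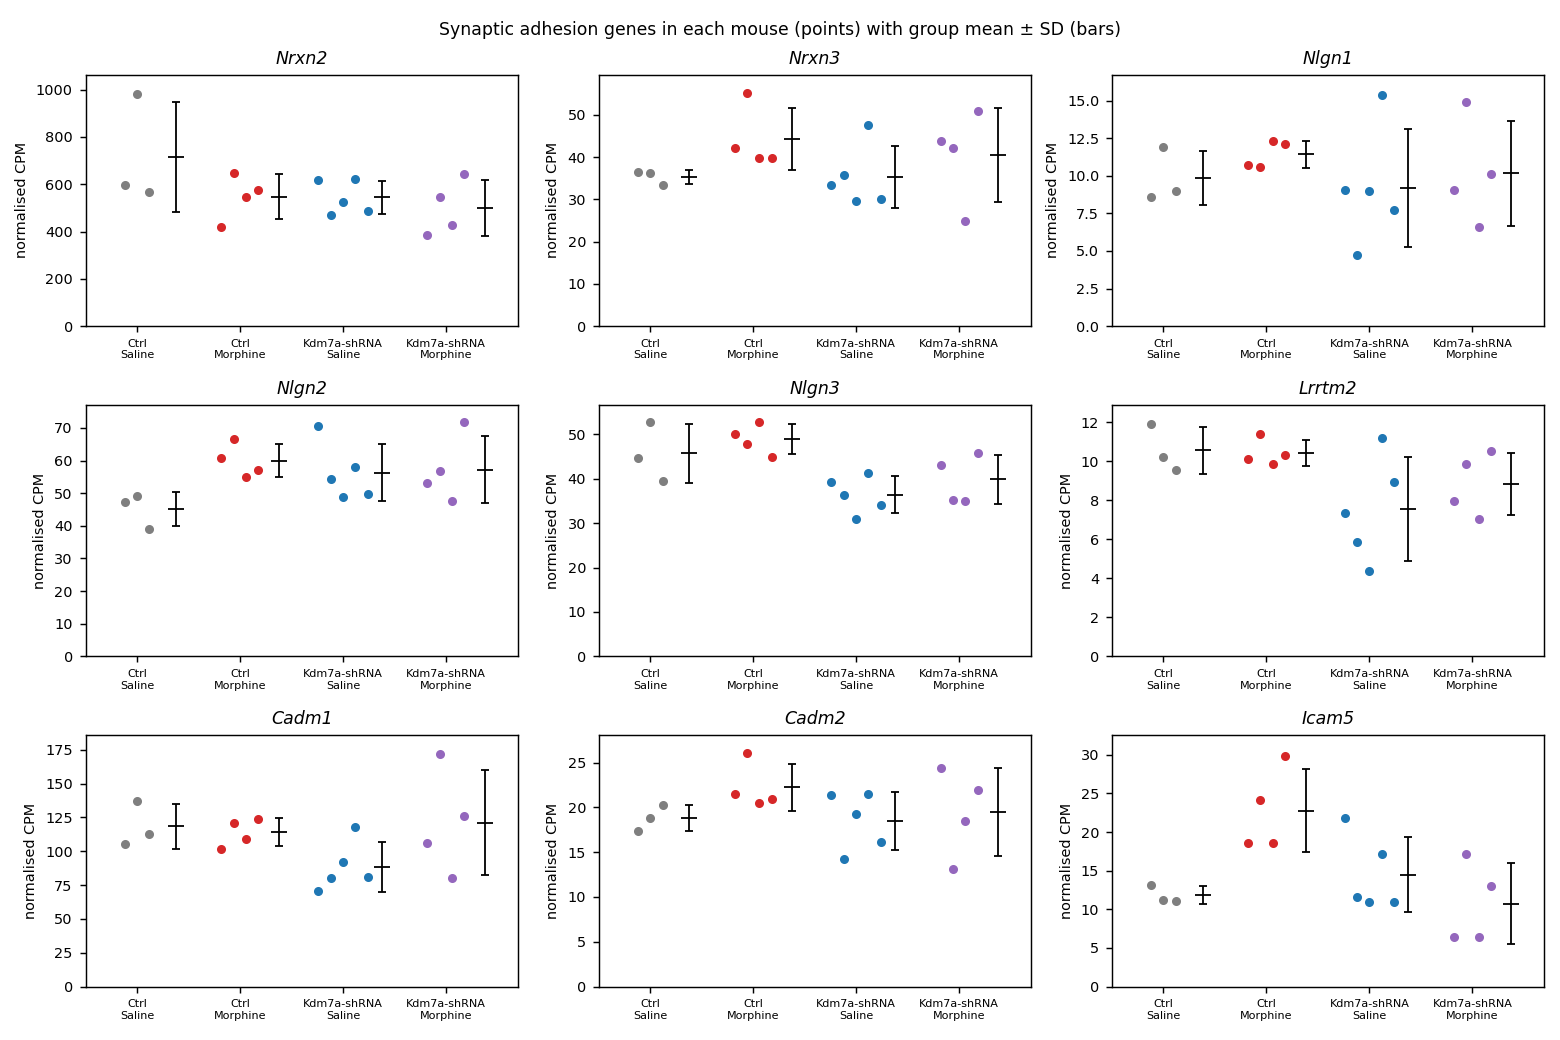
Normalised CPM (vertical axes, each starting at 0) of the 9 genes in each mouse (points) of the 4 groups on the horizontal axes, with group mean ± SD (bars). Icam5 in Ctrl + Morphine mice, at 18.6 to 29.8, lies above the Ctrl + Saline and the Kdm7a-shRNA + Morphine mice, while the groups overlap in most other panels.

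The 2 neurexins showed no call in any comparison. Exons of other annotated genes overlap Nrxn2 (Gm14964 and Slc22a12), Nrxn3 (Gm37980), Nlgn1 (A830092H15Rik), Nlgn3 (Gm21986) and Cadm2 (1700010K23Rik), and of these Slc22a12 alone had reads in the table, 0 to 4 per mouse. Nrxn2 (chr19:6418731-6544169, plus strand) was 596, 983 and 565 normalised CPM in Ctrl + Saline and 419, 647, 547 and 576 in Ctrl + Morphine mice. Values after knockdown were 618, 471, 526, 620 and 486 in Kdm7a-shRNA + Saline mice, and 384, 546, 428 and 645 in Kdm7a-shRNA + Morphine mice. Ctrl + Saline mouse 2 stood above all other 15 mice, and the groups overlapped in every comparison. The estimate was -0.39 for morphine in Ctrl mice (95% interval -0.81 to 0.04) and -0.39 for knockdown under saline (95% interval -0.80 to 0.01). Without that mouse these were -0.08 and -0.09. With morphine, knockdown gave -0.13 (95% interval -0.53 to 0.27).

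Nrxn3 (chr12:88722876-90334935, plus strand) was 36.5, 36.2 and 33.4 normalised CPM in Ctrl + Saline and 42.2, 55.2, 39.9 and 39.7 in Ctrl + Morphine mice. All Ctrl + Morphine mice lay above the Ctrl + Saline mice, with an estimate of 0.32 (95% interval -0.12 to 0.76, adjusted p = 0.587 from edgeR). In Kdm7a-shRNA + Saline mice it was 33.3, 35.7, 29.7, 47.7 and 30.2, and in Kdm7a-shRNA + Morphine mice 43.8, 42.2, 24.8 and 51.0. The Kdm7a-shRNA groups spread more widely than the Ctrl + Saline mice and overlapped with them. Knockdown gave -0.00 under saline (95% interval -0.42 to 0.42) and -0.13 under morphine (95% interval -0.54 to 0.27).

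Of the neuroligins, Nlgn2 and Nlgn3 had estimates of opposite sign after knockdown under saline, and neither passed. Nlgn2 (chr11:69823122-69837784, minus strand), the neuroligin of inhibitory synapses, was 47.3, 49.1 and 39.1 normalised CPM in Ctrl + Saline and 60.9, 66.7, 55.1 and 57.1 in Ctrl + Morphine mice, with no overlap between these groups. With the Kdm7a hairpin the levels were 70.5, 54.5, 48.9, 57.9 and 49.7 in Kdm7a-shRNA + Saline mice, and 53.0, 56.7, 47.5 and 71.8 in Kdm7a-shRNA + Morphine mice. Ctrl + Saline was the lowest group, and the other 3 groups overlapped broadly, with means of 60.0, 56.3 and 57.3. Morphine in Ctrl mice gave 0.41 (95% interval 0.08 to 0.74, adjusted p = 0.299 from edgeR), and knockdown under saline gave 0.32 (95% interval 0.00 to 0.63, adjusted p = 0.141). Markers of inhibitory neurons moved with the virus in both directions. After knockdown under saline Sst, Vip and Gad2 passed as lower (-1.14, -0.92 and -0.63) and Slc32a1 and Pvalb as higher (1.10 and 0.68), and under morphine Sst was lower (-0.99) and Pvalb higher (0.81). These calls are 71.4% and 28.6% of the 7 markers, beside 16.7% and 7.69% of all entries. The sum of all 7 was 493 to 554 normalised CPM in Ctrl + Saline, 523 to 547 in Ctrl + Morphine, 333 to 441 in Kdm7a-shRNA + Saline and 363 to 485 in Kdm7a-shRNA + Morphine mice, so that every knockdown mouse was below every Ctrl mouse. By the mean log2 level, in which each marker weighs the same, Kdm7a-shRNA + Morphine mice overlapped with Ctrl mice. Mouse 4 of that group (5.11) stood above every Ctrl mouse but Ctrl + Morphine mouse 2 (5.23). Its mouse 1 (4.97) stood above Ctrl + Saline mouse 1 (4.95) and Ctrl + Morphine mouse 4 (4.96). The Kdm7a-shRNA + Saline mice, at most 4.88, stayed below every Ctrl mouse. The part of these cells in the Nlgn2 values was not tested. Knockdown under morphine gave -0.07 (95% interval -0.37 to 0.23) for Nlgn2, and the interaction was -0.39 (95% interval -0.82 to 0.05, adjusted p = 0.532 from edgeR).

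Nlgn3 (chrX:101299168-101325963, plus strand) was 44.7, 52.9 and 39.6 normalised CPM in Ctrl + Saline and 50.1, 47.8, 52.8 and 44.9 in Ctrl + Morphine mice. Knockdown mice had 39.3, 36.3, 30.9, 41.4 and 34.2 in Kdm7a-shRNA + Saline mice, and 43.2, 35.3, 35.1 and 45.9 in Kdm7a-shRNA + Morphine mice. Both Kdm7a-shRNA groups lay mostly below the Ctrl groups, with 4 of 5 and 3 of 4 mice under the lowest mouse of the matching Ctrl group. Knockdown gave -0.33 under saline (95% interval -0.61 to -0.05, adjusted p = 0.09 from edgeR) and -0.30 under morphine (95% interval -0.57 to -0.02, adjusted p = 0.16). Morphine in Ctrl mice gave 0.10 (95% interval -0.20 to 0.39).

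Because both genes are read in the same library, Nlgn2 can be set against Nlgn3 within each mouse, and library scaling cancels from this difference. Log2 Nlgn2 minus log2 Nlgn3 was 0.08, -0.11 and -0.02 in the Ctrl + Saline mice. It was 0.28, 0.48, 0.06 and 0.35 in the Ctrl + Morphine mice, 0.84, 0.59, 0.66, 0.48 and 0.54 in the Kdm7a-shRNA + Saline mice and 0.30, 0.69, 0.44 and 0.65 in the Kdm7a-shRNA + Morphine mice. All 5 Kdm7a-shRNA + Saline mice lay above all 3 Ctrl + Saline mice, and the lowest of them stood with the highest Ctrl + Morphine mouse at 0.48. The other 3 such differences that were computed, Nlgn2 minus Nlgn1, Nrxn2 minus Nrxn3 and Cadm1 minus Cadm2, overlapped between the Kdm7a-shRNA + Saline and Ctrl + Saline mice. Nrxn2 minus Nrxn3 was lower in every Ctrl + Morphine mouse (3.31 to 3.86) than in every Ctrl + Saline mouse (4.03 to 4.76). These pairs were chosen after the values of single genes had been seen and carry no test.

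Nlgn1 (chr3:25426215-26332460, minus strand), the neuroligin of excitatory synapses, was 8.59, 11.9 and 9.01 normalised CPM in Ctrl + Saline and 10.7, 10.6, 12.3 and 12.1 in Ctrl + Morphine mice. In Kdm7a-shRNA + Saline mice it was 9.08, 4.72, 9.01, 15.4 and 7.74, and in Kdm7a-shRNA + Morphine mice 9.04, 14.9, 6.62 and 10.1. The Ctrl + Morphine mice lay close together, with a coefficient of variation of 7.98%, and the Kdm7a-shRNA groups spread widely, at 42.4% under saline and 34.1% under morphine. Counts were 41 to 137 reads per mouse. The estimates were 0.21 for morphine in Ctrl mice (95% interval -0.43 to 0.84), -0.10 for knockdown under saline (95% interval -0.71 to 0.50) and -0.17 under morphine (95% interval -0.76 to 0.41). A level 1.5-fold lower after knockdown lies inside both knockdown intervals.

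Lrrtm2, a postsynaptic neurexin partner of excitatory synapses that helps to hold AMPA receptors in place, was 11.9, 10.2 and 9.54 normalised CPM in Ctrl + Saline and 10.1, 11.4, 9.86 and 10.3 in Ctrl + Morphine mice. After knockdown the mice had 7.35, 5.88, 4.38, 11.2 and 8.94 in Kdm7a-shRNA + Saline mice, and 7.97, 9.83, 7.05 and 10.5 in Kdm7a-shRNA + Morphine mice. Under saline, 4 of 5 knockdown mice lay below every Ctrl mouse and mouse 4 lay among them. Knockdown under saline gave -0.48 (95% interval -0.96 to 0.01, adjusted p = 0.15 from edgeR), and the gene passed without that mouse (-0.66, adjusted p = 0.0321). In that fit 19.8% of all entries passed. Knockdown under morphine gave -0.24 (95% interval -0.71 to 0.23) and morphine in Ctrl mice -0.02 (95% interval -0.52 to 0.48).

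The gene lies within Ctnna1, the gene of alpha-catenin 1, on the opposite strand of chromosome 18, and shares exonic sequence with it. Ctnna1 rose after knockdown under saline, from 30.4 ± 3.37 (SD, n = 3) to 47.3 ± 5.61 normalised CPM (SD, n = 5), a log2 fold change of 0.64 (adjusted p = 0.00849 from edgeR). Its estimate was 0.51 to 0.71 over 17 alternatives, and the call was lost in 3 of them, among these the fit without Ctrl + Saline mouse 2. Reads of the shared exons cannot be assigned to a strand from the table, and how they were divided was not tested.

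Cadm1 (chr9:47530173-47857637, plus strand) was 105, 137 and 113 normalised CPM in Ctrl + Saline and 102, 121, 109 and 124 in Ctrl + Morphine mice. Under knockdown it measured 70.8, 80.0, 92.4, 118 and 81.0 in Kdm7a-shRNA + Saline mice, and 106, 172, 80.1 and 126 in Kdm7a-shRNA + Morphine mice. The Kdm7a-shRNA + Saline group was the lowest, with 4 of 5 mice below all Ctrl + Saline mice, and the Kdm7a-shRNA + Morphine group held both the highest mouse of all and 1 of the lower ones. Knockdown gave -0.42 under saline (95% interval -0.83 to -0.01, adjusted p = 0.135 from edgeR) and 0.09 under morphine (95% interval -0.31 to 0.49), the latter being -0.014 when libraries were scaled by size alone. Morphine gave 0.45 among the knockdown mice (95% interval 0.07 to 0.83, adjusted p = 0.698 from edgeR) and -0.06 among Ctrl mice (95% interval -0.49 to 0.38). The interaction was 0.51 (95% interval -0.07 to 1.09, adjusted p = 0.534 from edgeR), so a difference between these morphine effects was not shown.

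Cadm2 (chr16:66655421-67620908, minus strand), the binding partner of Cadm1, was 17.4, 18.8 and 20.3 normalised CPM in Ctrl + Saline and 21.5, 26.1, 20.5 and 20.9 in Ctrl + Morphine mice. The Ctrl groups did not overlap but came within 0.2 normalised CPM of each other, and the estimate was 0.24 (95% interval -0.17 to 0.64). In Kdm7a-shRNA + Saline mice it was 21.4, 14.2, 19.3, 21.5 and 16.1, and in Kdm7a-shRNA + Morphine mice 24.4, 13.1, 18.5 and 21.9. Both of these groups spread across the Ctrl range. Knockdown gave -0.03 under saline (95% interval -0.42 to 0.36) and -0.20 under morphine (95% interval -0.57 to 0.18).

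**Figure D3:**
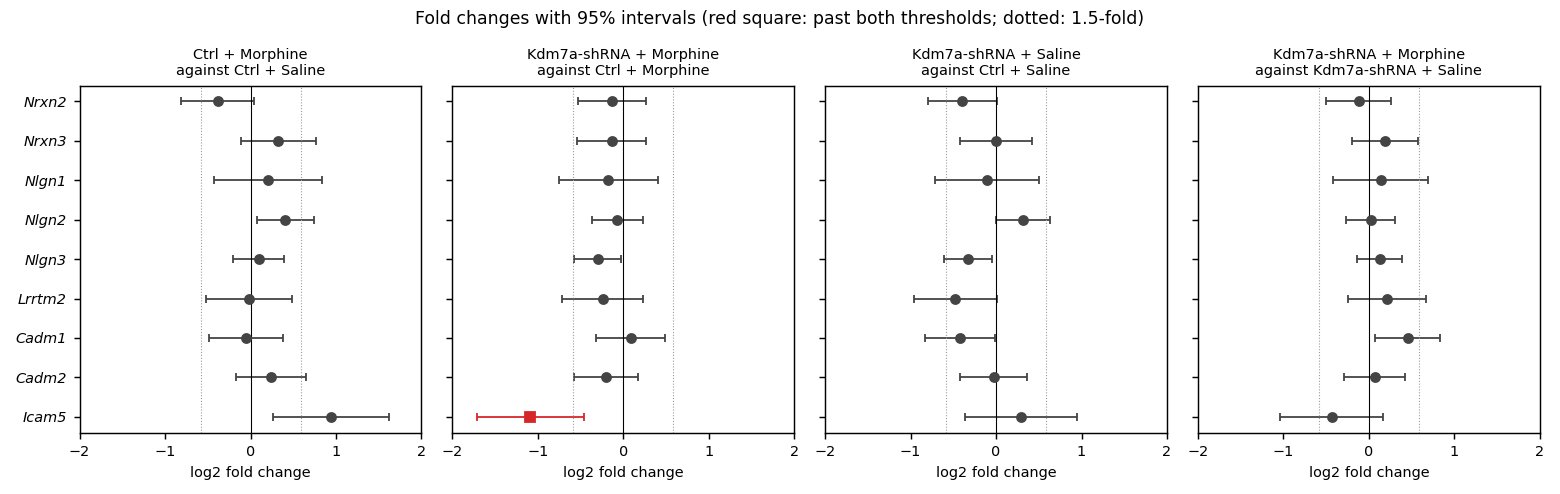
Log2 fold changes (horizontal axes) with 95% intervals of the 9 genes in the 4 comparisons between groups. A red square marks a gene past both thresholds, which is Icam5 alone, at -1.09 for knockdown under morphine, and dotted lines mark 1.5-fold.

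Counted over the 9 genes, morphine in Ctrl mice gave 0 calls by edgeR and 0 by DESeq2, where 0% of all tested entries passed by edgeR. An unadjusted p-value under 0.05 was reached by 2 of 9, Icam5 and Nlgn2, beside 11.7% of all entries. The groups did not overlap for 4 of 9, Nrxn3, Nlgn2, Cadm2 and Icam5, all higher with morphine, beside 12.4% of all entries in either direction. Their median log2 fold change was 0.21 against -0.01 over all entries.

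Knockdown under morphine gave 1 call of 9, Icam5, by both tools. That is 11.1% of the 9, beside 7.69% of all entries by edgeR, while DESeq2 passed 1697 of all 18826 entries. Under an unadjusted 0.05 were 2 of 9, Icam5 and Nlgn3, beside 25.5% of all entries. The estimates of 8 of 9 were below 0, with a median of -0.17 against -0.00 over all entries. Under saline, knockdown gave 0 calls of 9 by edgeR and by DESeq2, although 16.7% of all entries passed. An unadjusted p-value under 0.05 was reached by 3 of 9, Nlgn2, Nlgn3 and Cadm1, a share close to the 34.7% of all entries. No gene of the 9 had groups without overlap, against 23.7% of all entries, and the median was -0.10 against 0.01 (7 of 9 below 0).

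Among knockdown mice, morphine gave 0 calls of 9 by edgeR and by DESeq2, beside 0.00531% of all entries by edgeR. Cadm1 alone reached an unadjusted p-value under 0.05, beside 7.02% of entries, and the groups overlapped for all 9, beside 1.94% without overlap. Apart from Icam5 and Cadm1, the estimates ran from -0.12 for Nrxn2 to 0.22 for Lrrtm2. The interaction gave 0 calls of 9 by both tools, beside 0.085% of entries by edgeR, and Icam5 alone reached an unadjusted p-value under 0.05, beside 10.7%. Apart from Icam5, Cadm1 and Nlgn2, the interaction estimates ran from -0.17 for Cadm2 to 0.27 for Nrxn2.

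The length of the transcripts moved with the same contrasts. By their longest coding transcript, 7 of the 9 genes belonged to the longest 20% of annotated coding genes, from 5257 bases upwards, and Icam5 and Cadm1 did not. The median log2 fold change of knockdown under saline was 0.21 in the shortest 20% and -0.06 in the longest 20%, and under morphine 0.10 and -0.03. The part of transcript length in the members' values was not tested.

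The same comparisons were read over a wider list of 61 synaptic adhesion genes, of which 59 were tested. Knockdown under saline gave 7 calls, 11.9% of the 59 beside 16.7% of all entries. Of the entries tested, 23.3% are loci assembled from the reads and not annotated genes. With known genes only, 9 of the 59 passed, 15.3%, beside 9.83%, so which share was larger depended on that choice. Higher were Lrrc4b (log2 fold change 0.94, adjusted p = 0.0233 from edgeR), a postsynaptic partner of LAR-type phosphatases, Cadm4 (0.81, adjusted p = 0.00698), a relative of Cadm1, and Dag1 (0.64, adjusted p = 0.0103), which encodes the neurexin-binding protein dystroglycan. Lower were Ncam2 (-0.92, adjusted p = 0.0192 from edgeR) and Chl1 (-0.74, adjusted p = 0.0285), both of the immunoglobulin superfamily, Ptprd (-0.70, adjusted p = 0.0084), a presynaptic LAR-type phosphatase, and Ntng1 (-0.62, adjusted p = 0.0189), the presynaptic netrin-G1. The list's median was -0.24, beside -0.10 for the 9 genes and 0.01 for all entries, and 43 of 59 estimates were below 0. The count was 2 without Ctrl + Saline mouse 3, 3 without Ctrl + Saline mouse 2 and 13 without Kdm7a-shRNA + Saline mouse 4, and the share of all entries was 7.4%, 10.8% and 19.8% in these fits. Chl1 lost its call under 8 of 17 alternatives and each of the other 6 genes under 1 to 3.

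With morphine, knockdown gave 1 call of 59, Nrcam, a cell adhesion protein of the L1 family (-0.64, adjusted p = 0.00983 from edgeR), and a median of -0.20. This is 1.69% of the 59 beside 7.69% of all entries, and 9 were under an unadjusted 0.05, beside 25.5%. With known genes only it was 2 of 59, 3.39%, beside 3.09%. The Nrcam call was lost without Kdm7a-shRNA + Morphine mouse 2, and 2 or 3 genes passed without Kdm7a-shRNA + Morphine mouse 1 or 4 or Ctrl + Morphine mouse 2. In that order these were 3.39%, 5.08% and 3.39% of the 59, beside 4.86%, 11% and 8.67% of all entries. Morphine gave 0 of 59 by edgeR in Ctrl mice, with 8 under an unadjusted 0.05, beside 11.7% of all entries. By DESeq2 1 of them, Cadm4, passed, beside 190 of all 18826 entries. Among knockdown mice morphine gave 0 by both tools, with 6 under an unadjusted 0.05, beside 7.02%. The interaction gave 0 by edgeR, with 8 under an unadjusted 0.05, beside 10.7%. By DESeq2 it gave 1, again Cadm4, beside 227 of all 18826 entries. Without Ctrl + Saline mouse 1, edgeR gave 1 of 59 both for morphine in Ctrl mice and for the interaction. That is 1.69% of the 59, beside 1.18% and 1.37% of all entries in the same fit.

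**Figure D4:**
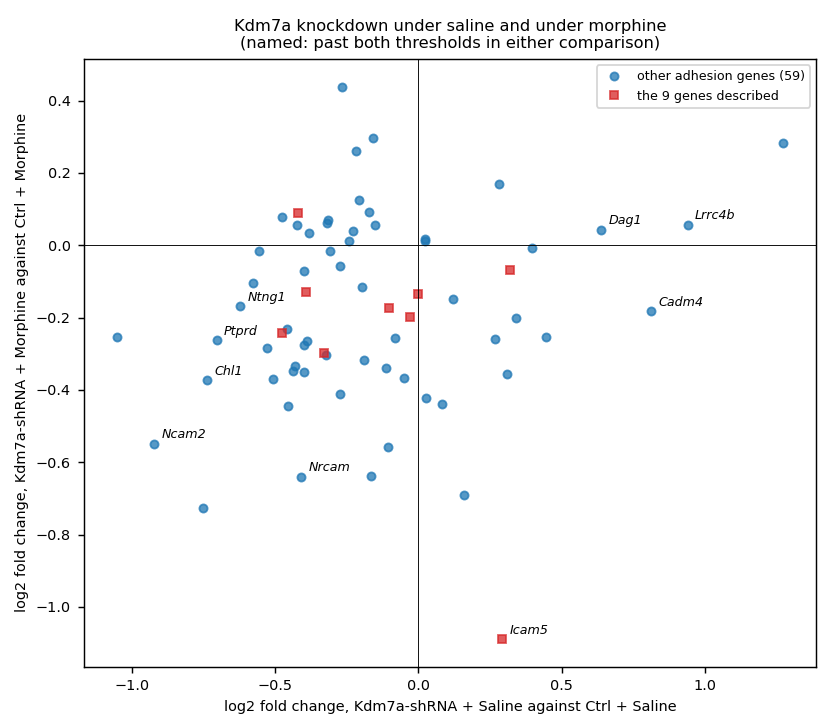
Log2 fold change of knockdown under saline (horizontal axis) and under morphine (vertical axis) for the 9 genes (red squares) and 59 other adhesion genes (blue points), with genes past both thresholds in either comparison named. Icam5 is the lowest point, at -1.09 under morphine and 0.29 under saline.

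Proteins that bind the adhesion molecules from inside the cell or from the cleft were counted in the same way. Of 21 intracellular partners, 3 passed, all lower after knockdown under saline, which is 14.3% of the 21 beside 16.7% of all entries, and 7 were under an unadjusted 0.05, beside 34.7%. They were Lin7c (-0.71, adjusted p = 0.00451 from edgeR) and Cask (-0.62, adjusted p = 0.00972), members of one presynaptic scaffold that binds neurexins, and Magi3 (-0.70, adjusted p = 0.0394), a membrane-associated scaffold protein. Lin7c passed under all 17 alternatives, Cask lost its call under 3 and Magi3 under 7. In the other 4 comparisons 0 of 21 passed by edgeR and 0 by DESeq2. For morphine in Ctrl mice 3 of 21 reached an unadjusted p-value under 0.05, beside 11.7% of all entries, for the interaction 1, beside 10.7%, and for knockdown under morphine and morphine among knockdown mice 0, beside 25.5% and 7.02%. Of 14 tested secreted ligands and their receptors, such as cerebellins and neuronal pentraxins, 0 passed in the 5 comparisons by edgeR and 0 by DESeq2, with at most 3 under an unadjusted 0.05, for knockdown under morphine, beside 25.5% of all entries.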

How the data were processed

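RNA of the mPFC of 16 mice was sequenced as nanopore cDNA. Following the study's methods, reads were filtered on quality and length, ribosomal reads were removed, and full-length reads were aligned to mm10 with minimap2 and collapsed. The counts deposited by the authors are reads per gene without normalization, and the CPM deposited by the authors are those counts per 1000000 reads of each mouse. The submitters' processing notes name edgeR 3.8.6, and no source states whether counting used strand. The CPM column served as a check only.

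Counts were filtered with filterByExpr, scaled with TMM factors and tested with edgeR 4.0.16 (R 4.3.3) in 1 quasi-likelihood fit of all 4 groups, and p-values were adjusted over 18826 entries by the Benjamini-Hochberg method. Intervals are 95% intervals of the log2 fold change and are not adjusted. Adjusted p-values are from edgeR's quasi-likelihood test. The scripts were tested on simulated data. Markers were averaged as log2(normalised CPM + 0.5).

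The 9 genes and all gene lists were chosen with earlier results of these data known. Named from the lists were genes that passed in at least 1 comparison, Kdm7a and Ctnna1. The alternatives were RLE factors, library size only, no filter, a mean of at least 1 CPM, the compared groups alone, DESeq2 1.42.0, known genes only, a block on replicate number, the threshold on adjusted p without the fold, each mouse left out, and, chosen after seeing the data, the 2 mice with most microglial markers left out together. Mice of a group differed by more than counting error (chi-square per degree of freedom 8.33 to 51.2 over 25 pairs). Positions are from GENCODE M21 on GRCm38. The lengths of coding transcripts are from the same release. Counts of single transcripts and protein sequences were not used here.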

Additional observations from a re-analysis of the deposited data

Results flagged for a closer look

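Nrxn3 stood apart in 1 mouse. Ctrl + Morphine mouse 2 was at 55.2 normalised CPM, against 39.7 to 42.2 in the other mice of its group. It was the 1 value among 27 group-by-gene checks (9 genes in the 3 groups of 4 or 5 mice) in which the highest or lowest mouse lay unusually far from the rest by Dixon's criterion, and chance alone flags about 1 in 20 such groups.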

How the results depend on the processing

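Among the 9 genes the call of Icam5 for knockdown under morphine decided the counts. It was 0 of 9 with the compared groups alone and 0 without the 2 mice with most microglial markers (log2 fold change -0.89, adjusted p = 0.0977 from edgeR), and 0 to 1 with each mouse left out. Of all entries, 4.11% passed with the compared groups alone and 2.89% without those 2 mice, against 7.69% in the main fit. With each mouse left out it was 3.03% to 11%. The other alternatives kept the Icam5 call. Over the alternatives that kept every mouse or left out those 2, the Icam5 estimate ran from -1.19 to -0.89 (adjusted p = 0.00825 to 0.0977), and with 1 mouse left out from -1.41 to -0.89 (adjusted p = 0.013 to 0.104).

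For knockdown under saline the count rose from 0 to 1 of 9, Lrrtm2, with the replicate number as a block (-0.70, adjusted p = 0.0395 from edgeR), and was 0 to 1 with each mouse left out. Of all entries, 17% passed with the block and 7.4% to 19.8% with each mouse left out. The block changed no other count of the 9 genes. Same-numbered mice are different animals. Their deviations from the group means correlated at -0.10 to 0.40 over 21 pairs, 6 of them over 0.1, so the numbers were not taken to pair the mice.

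For the 59 other adhesion genes, knockdown under morphine gave 2 calls in place of 1 with library size only, with known genes only and with the adjusted p-value alone, and 0 to 3 with each mouse left out. Of all entries, 8.71% passed with library size only, 3.09% with known genes only and 3.03% to 11% with each mouse left out. Knockdown under saline gave 2 to 13 in place of 7 with each mouse left out. DESeq2 gave 1 in place of 0 for morphine in Ctrl mice and 1 for the interaction, where 190 and 227 of all entries passed by DESeq2. By edgeR both counts were 0 to 1 with each mouse left out, beside 0% to 1.18% and 0% to 1.37% of all entries. The other named genes kept their direction under all alternatives, with 62 calls lost and 6 gained, all 6 for Kdm7a under morphine. Scaling by library size alone moved the median of all entries by -0.11 for knockdown under morphine and by -0.13 under saline.

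Estimates near 0 changed sign. Cadm1 for knockdown under morphine was -0.014 with library size only. Without the 2 mice with most microglial markers, Nrxn3 was 0.046 and Nlgn2 0.014 for knockdown under morphine, and Nrxn3 was 0.056 under saline. With each mouse left out, morphine in Ctrl mice ranged from -0.17 to 0.064 for Cadm1, -0.10 to 0.036 for Lrrtm2 and -0.015 to 0.22 for Nlgn3. Knockdown under morphine ranged from -0.13 to 0.24 for Cadm1, -0.20 to 0.014 for Nlgn2 and -0.27 to 0.046 for Nrxn3. Knockdown under saline ranged from -0.12 to 0.053 for Cadm2, -0.37 to 0.068 for Nlgn1 and -0.13 to 0.054 for Nrxn3, and the interaction of Nrxn2 from -0.039 to 0.44. Of the repeated estimates of single genes, 605 kept direction and call, 21 changed sign, 5 lost a call and 2 gained one. The cause of these changes was not tested. The lowest counts, under 300 reads per mouse for Icam5, Nlgn1, Lrrtm2 and Cadm2, limit the precision of these genes.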

Other observations

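The levels of the 9 genes moved together from mouse to mouse. Over the 16 mice, 35 of 36 pairs of the genes had a positive Pearson correlation of log2 normalised CPM, from -0.00 for Cadm1 with Cadm2 to 0.75 for Nlgn1 with Cadm1, with a median of 0.41. With group means removed, 34 of 36 were positive and the median was 0.47. These pairs share their libraries and the mixture of cells in each tissue piece, and no test was made.

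Within the Kdm7a-shRNA + Saline group, mouse 4 had the highest level of 7 of the 9 genes, all but Nlgn2 and Icam5, which were highest in mouse 1. It had the lowest microglial marker sum of its group, 803 normalised CPM, against 1120 to 2310 in the other 4 mice, and the highest sum of 5 general neuronal markers, 2590, against 1560 to 2020. The part of the cell mixture in these levels was not tested.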
